A study of Mus musculus with 3 samples.

Results

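In chromatin-bound RNA of mouse macrophages, 24 genes had nearly all of their transcript level in isoforms that the annotation types as retained_intron. They were chosen from the 2936 genes that have at least 1 protein_coding and 1 retained_intron transcript and a mean gene level of at least 20 TPM, a length-corrected transcript level with the same total in every library, over 3 libraries. In each library at least 90% of a chosen gene's TPM lay in retained_intron transcripts, in the table computed from alignments. The 24 genes are 0.817% of these 2936 genes, which themselves come from 9120 genes with both transcript types and 55536 genes in the gene table. Lilrb4a also passed every threshold and was left out by name, as were Rsrp1 and the Clk1 to Clk4 kinases, none of which passed. The shares and the level that chose the genes are given as a description, with no test.

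The cells were bone marrow-derived macrophages, primary cells of strain C57BL/6J, and the RNA was total RNA of the chromatin fraction, depleted of ribosomal RNA. All 3 libraries belong to 1 group: 12 h in Lipid A, the TLR4-binding part of lipopolysaccharide, at 100 ng/ml, then 12 h of washout, collected at minute 0 of a second exposure to 100 ng/ml. Untreated cells and later minutes were not analysed here, so no value below is an effect of Lipid A. The labels number the libraries as biological replicates 1, 2 and 3, give all of them 1 donor identifier, record neither sex nor age, and state starting RNA of 1 µg for replicate 1, 250 ng for replicate 2 and 500 ng for replicate 3. Nothing says whether separate animals or cultures stand behind the replicates, so the spread between them may be technical.

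Retained introns are introns that stay in a transcript after its other introns have been spliced out. Transcripts that keep one are often held in the nucleus, near chromatin or in nuclear speckles, where they may be spliced later or degraded, and those that reach the cytoplasm are often removed by nonsense-mediated decay. Chromatin-bound RNA also holds transcripts still being made, in which introns are present because splicing is not finished. Short-read counts cannot tell these states apart, and an annotated retained_intron isoform is the nearest transcript model to which such reads can be assigned.

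The depth was 11958978 expected counts (estimated reads) for replicate 1, 17283529 for replicate 2 and 19475027 for replicate 3. Each of the 12 macrophage markers reached 1 TPM in all 3 libraries, and together they came to 902, 1153 and 1072 TPM. Replicate 3 stood apart: all 13 stromal markers reached 1 TPM there, and their sum was 787 TPM, against 2.87 TPM in replicate 1 and 4.19 TPM in replicate 2. Neutrophil markers summed to at most 0.980 TPM, B cell markers to at most 1.21 TPM and T cell markers to at most 10.5 TPM in any library, and Cd3e, Cd3g, Mpo and Hba-a1 were at 0 in all 3. Erythroid markers summed to 19.4, 17.9 and 9.81 TPM. In bulk RNA, fewer cells of a type and less RNA per cell cannot be told apart.

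The 24 genes together made up 1392 TPM, averaged over libraries. Their median gene level was 39.3 TPM, against 42.1 TPM in the other 2912 genes. Their retained-intron share had a median of 94.4%, 95.01% and 93.4% in replicates 1, 2 and 3, against 50.2%, 51.9% and 47.2% in the other genes. The summed level of their protein_coding transcripts had a median of 1.52, 1.49 and 1.88 TPM, against 15.2, 16.9 and 18.9 TPM in the other genes. A share of 90% was reached in at least 1 library by 82 of the 2936 genes.

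**Figure D1:**
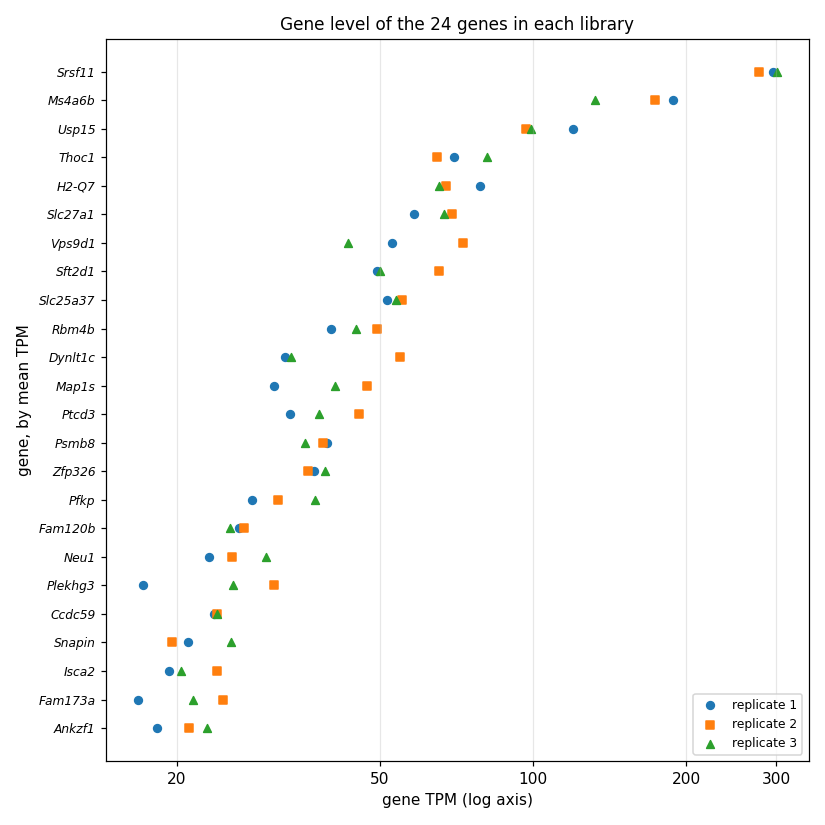
Gene level in TPM (log axis) of each of the 24 genes, ordered by mean, with 1 point per library. The levels run from 300.7 TPM for Srsf11 in replicate 3 down to 16.8 TPM for Fam173a in replicate 1, and the 3 libraries of Ccdc59 nearly coincide while those of Plekhg3, Dynlt1c and Vps9d1 are spread.

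The members that act on RNA were led by Srsf11, which encodes an SR-related splicing factor and was the highest of the 24 (ENSMUSG00000055436.18, chr3:158010473-158036639, minus strand, in mm10 coordinates as for all genes here). Its gene level was 296.5, 278.4 and 300.7 TPM in replicates 1, 2 and 3, and its retained-intron share was 93.9%, 93.7% and 90.4%. The libraries lay close together in level by this TPM, and replicate 3 had the lowest share. The gene has 11 retained_intron transcripts, of which Srsf11-208, 2415 bases long, led with 85.9 ± 4.3 TPM (SD, n = 3) and Srsf11-213 followed with 65.3 TPM. Its protein_coding transcripts summed to 14.7, 15.7 and 26.7 TPM, highest in replicate 3.

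Thoc1 encodes a subunit of the THO complex, which couples transcription to mRNA export (ENSMUSG00000024287.8, chr18:9957906-9995489, plus strand). Its gene level was 69.8, 64.9 and 81.1 TPM, and its share was 92.7%, 93.5% and 94.0%, lowest in replicate 1. The leading transcript, Thoc1-211, overlaps Usp14 on the other strand over 21.6% of its bases, and Usp14 itself stood at 54.8 TPM. Whether the quantification used strand is not given in the sources used, and reads in that overlap cannot be assigned with certainty.

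Rbm4b, of a family of RNA-binding proteins that regulate alternative splicing (ENSMUSG00000033760.17, chr19:4756497-4767065, plus strand), had 40.2, 49.5 and 45.0 TPM and shares of 100%, 99.1% and 97.7%. Its leading transcript Rbm4b-206 is a single exon of 5670 bases, of which 54.1% overlap Gm37206, a gene on the other strand that was listed at 0 TPM. No protein_coding expected count was assigned to Rbm4b in replicate 1, which by counting error alone allows a protein_coding share of up to 0.128% of its counts. That limit and the ones below take 3 counts as what a count of 0 allows. They leave out error in assigning reads to isoforms, so the true share can be higher. A read-based estimate from the same reads put the protein_coding transcript Rbm4b-210 at 1.81 TPM in replicate 1.

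Zfp326, whose human counterpart belongs to a complex that links RNA polymerase II with splicing (ENSMUSG00000029290.12, chr5:105876565-105915818, plus strand), had 37.2, 36.2 and 39.1 TPM. Its share was 97.6%, 94.3% and 93.6%, while the read-based table gave 72.2%, 76.4% and 78.8%. The tables differ for this gene in every library, and by most in replicate 1. In replicate 1 it also had 0 protein_coding expected counts, a counting limit of 0.290%. The read-based table, however, put its protein_coding transcript Zfp326-209 at 8.04 TPM in that library. Among 36 splicing and speckle genes known for retained introns that reached 20 TPM, Srsf11 was the only member. Members are 0.817% of the 2936 genes, so 0 or 1 in a list this short says little about the list. The median share of the 36 was 59.8%, against 50.01% in the other genes.

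3 members belong to immune and antigen-presentation functions. Ms4a6b encodes a four-span membrane protein of the MS4A family (ENSMUSG00000024677.13, chr19:11516512-11531256, plus strand). Its gene level was 188.6, 173.8 and 132.3 TPM, lowest in replicate 3, and its share was 94.0%, 95.1% and 92.1%. The level is split between Ms4a6b-202, 429 bases long at 83.2 ± 17.2 TPM, and Ms4a6b-203, 4286 bases long at 71.6 TPM, and the longer one holds 1 intron whole. The TPM of Ms4a6b-202 rests on 247.1, 217.4 and 201.5 expected counts, of 4549, 4665 and 4712 for the gene. In the read-based table it stood at 185.8, 156.0 and 116.6 TPM. Of its 31-base words, 34.3% also occur in transcripts of other genes, Ms4a6d and Ms4a6c first. The level of Ms4a6b-202 is therefore uncertain.

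H2-Q7 encodes a non-classical MHC class I heavy chain (ENSMUSG00000060550.16, chr17:35439155-35443773, plus strand). It had 78.7, 67.6 and 65.4 TPM and shares of 90.03%, 93.6% and 91.3%, the lowest of them in replicate 1 and just inside the threshold. Its leading transcript H2-Q7-206, 4209 bases long, holds 4 of the gene's 6 protein_coding introns from end to end. It shares 41.4% of its 31-base words with other genes, led by H2-Q10, H2-Q5 and H2-Q6, so reads may have been divided among these paralogs and its values are uncertain too.

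Psmb8 encodes an inducible catalytic subunit of the immunoproteasome, which cuts proteins into peptides for MHC class I (ENSMUSG00000024338.15, chr17:34197721-34201454, plus strand). Its gene level was 39.4, 38.7 and 35.7 TPM and its share 96.3%, 95.01% and 91.3%, both lowest in replicate 3. All 4 of its retained_intron transcripts hold a whole intron. Tap2, which encodes a subunit of the peptide transporter that loads MHC class I, lay just below the threshold with 92.7%, 92.4% and 89.9%. Its read-based share was only 44.0%, 44.5% and 46.5%. None of the 19 interferon-stimulated genes at 20 TPM or more was among the 24. With members at 0.817% of the 2936 genes, that count says little about these 19. The median share of the 19 was 52.3%, against 50.01% in the other genes. The highest of the 19 was Irf7, an interferon regulatory factor, at 84.1 ± 0.5% (SD, n = 3).

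In protein turnover, Usp15 encodes a deubiquitinating enzyme (ENSMUSG00000020124.10, chr10:123105006-123196995, minus strand). It had 119.7, 96.7 and 98.9 TPM, highest in replicate 1, and shares of 92.7%, 91.2% and 93.1%. As a share of expected counts, which are not divided by length, retained_intron transcripts held 68.9%, 63.9% and 69.8%. The protein_coding transcript Usp15-211 is 11525 bases long and stood at 8.74, 8.54 and 6.83 TPM. Thoc1 showed the same kind of gap, at 81.1 ± 1.0% of counts (SD, n = 3), and 4 of the 24 genes had a mean count share under 90%.

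Ankzf1, which in human cells acts in ribosome-associated quality control (ENSMUSG00000026199.17, chr1:75192151-75199387, plus strand), was the lowest of the 24 by mean level, at 18.3, 21.2 and 22.9 TPM. Its shares of 92.2%, 94.99% and 90.01% put it closest to the threshold, through replicate 3. Of its 5 retained_intron transcripts, 4 hold a whole intron.

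7 members serve vesicle traffic, the cytoskeleton or the lysosome. Vps9d1, whose protein carries the domain found in exchange factors of Rab GTPases (ENSMUSG00000001062.18, chr8:123242356-123254348, minus strand), had 52.8, 72.8 and 43.3 TPM, highest in replicate 2. Its share was 95.1%, 95.5% and 93.7%. The short leading transcript Vps9d1-208, 346 bases, was at 21.7, 13.8 and 9.42 TPM, highest in replicate 1. These values rest on only 36.8, 19.1 and 18.1 expected counts, of 804, 1598 and 1213 for the gene. Its order of libraries is therefore uncertain.

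Sft2d1, of a family of membrane proteins in vesicle transport (ENSMUSG00000073468.12, chr17:8311102-8327442, plus strand), had 49.4, 65.5 and 50.2 TPM and shares of 97.7%, 96.1% and 95.6%. Its read-based shares of 99.3%, 98.6% and 98.7% were higher still. Its leading transcript shares 37.9% of its 31-base words with other genes.

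Dynlt1c encodes a dynein light chain (ENSMUSG00000000579.14, chr17:6601671-6609774, plus strand). Its level was 32.6, 54.8 and 33.5 TPM, and its share was 91.8%, 100% and 97.3%. Replicate 2 was highest in both, and no protein_coding count was assigned there, a limit of 0.586%. Of the 31-base words of Dynlt1c-204, 67.0% occur in other genes, with Gm26848, Dynlt1f and Dynlt1a first, the largest overlap of the 24, so its values are uncertain.

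Map1s, which encodes a microtubule-associated protein (ENSMUSG00000019261.3, chr8:70905932-70917529, plus strand), had 31.02, 47.2 and 40.8 TPM and shares of 94.7%, 93.7% and 91.8%. Plekhg3, a guanine nucleotide exchange factor gene (ENSMUSG00000052609.9, chr12:76530891-76580488, plus strand), had 17.2, 31.03 and 25.8 TPM and shares of 90.3%, 92.2% and 91.1%. Both were lowest in level in replicate 1, and Plekhg3 had the largest spread of the 24, with an SD of 0.42 on the log2(TPM + 1) scale. Snapin, which encodes a SNARE-associated protein of lysosome-related organelles (ENSMUSG00000001018.15, chr3:90488026-90491033, minus strand), had 21.03, 19.6 and 25.6 TPM and shares of 98.0%, 96.8% and 93.7%.

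Neu1 encodes the lysosomal sialidase (ENSMUSG00000007038.5, chr17:34931253-34935953, plus strand). It had 23.1, 25.6 and 29.9 TPM, and shares of 98.8%, 94.6% and 93.9%. In the alignment-based table the gene is nearly a single-isoform case. There Neu1-202, 3619 bases, carried 99.4% of its retained-intron TPM, and the only protein_coding transcript was at 0.270, 1.39 and 1.81 TPM. In the read-based table the 446-base retained_intron transcript Neu1-203 stood at 4.82, 2.87 and 3.74 TPM, against 20.9, 17.5 and 23.0 TPM for Neu1-202. Neu1 was the only member among 15 lysosomal genes at 20 TPM or more, whose median share was 57.8%, against 50.01% in the other genes. None of 10 TLR4 signalling genes at that level was a member. Their median share was 55.4%, and the highest was Nfkb1, an NF-kB subunit gene, at 83.6%. With members at 0.817% of the 2936 genes, these counts say little about either list.

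6 members serve mitochondria or metabolism. Slc25a37 encodes mitoferrin, the iron importer of the inner mitochondrial membrane (ENSMUSG00000034248.7, chr14:69241848-69285112, minus strand). Its gene level of 51.7, 55.4 and 53.9 TPM was among the steadiest of the 24. Its share was 98.5%, 98.3% and 94.7%, all in the single retained_intron transcript Slc25a37-203 of 5927 bases. In the read-based table the share was 62.3%, 63.2% and 61.3%, the lowest of the 24. There the 342-base protein_coding transcript Slc25a37-202 stood at 17.6, 16.2 and 18.9 TPM, whereas the alignment-based table listed it at 0 in all 3 libraries. Expected counts of its protein_coding transcripts were 0, 11.8 and 151.5, so nearly all of them lay in replicate 3.

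Slc27a1 encodes a fatty acid transport protein (ENSMUSG00000031808.7, chr8:71568882-71587302, plus strand). It had 58.4, 69.5 and 66.9 TPM and shares of 100%, 98.7% and 98.4%, the highest mean share of the 24 at 99.0 ± 0.8% (SD, n = 3). No protein_coding count was assigned in replicate 1, a limit of 0.163%. The read-based shares were 94.4%, 90.5% and 89.5%, with the same order of libraries.

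Fam173a, whose human counterpart is a mitochondrial lysine methyltransferase (ENSMUSG00000057411.9, chr17:25790080-25792901, minus strand), had 16.8, 24.6 and 21.5 TPM. Its share was 94.5%, 91.9% and 93.8%, and its read-based share was 71.7%, 75.0% and 79.3%. The tables order the libraries differently for this gene. The leading transcript overlaps AC134908.4 on the same strand over 30.4% of its bases, and that gene was listed at 0 TPM.

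Ptcd3, a mitochondrial ribosome gene (ENSMUSG00000063884.6, chr6:71880638-71908750, minus strand), averaged 39.0 ± 6.2 TPM with a mean share of 93.8 ± 2.0% (SD, n = 3). Pfkp, the platelet-type phosphofructokinase of glycolysis (ENSMUSG00000021196.14, chr13:6579768-6648777, minus strand), averaged 32.4 ± 4.6 TPM with a mean share of 94.0 ± 1.1%. Isca2, which encodes a factor of mitochondrial iron-sulfur cluster assembly (ENSMUSG00000021241.7, chr12:84773251-84775088, plus strand), averaged 21.2 ± 2.4 TPM with a mean share of 95.6 ± 3.8%. The share of Isca2 moved most between libraries among these, from 91.5% in replicate 1 to 98.8% in replicate 2.

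The other members were Fam120b, a gene named for coactivation of the nuclear receptor PPAR gamma (ENSMUSG00000014763.8, chr17:15396202-15433583, plus strand), and Ccdc59 (ENSMUSG00000019897.8, chr10:105841067-105847833, plus strand). Fam120b had 26.5, 27.1 and 25.4 TPM and shares of 93.9%, 93.7% and 92.4%. Ccdc59 had 23.7, 23.9 and 24.03 TPM, the smallest spread of the 24, with shares of 98.1%, 95.4% and 93.1%. All 3 libraries had nearly the same level, and the share was lowest in replicate 3.

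Of the 24 genes, 7 lie on chromosome 17, which is 29.2%, against 157 of the other 2912 genes, or 5.39%. They are Dynlt1c, Sft2d1, Fam120b, Fam173a, Psmb8, Neu1 and H2-Q7, and the last 3 lie in the MHC region. This is a count over genes already chosen, with no test.

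The sequences below are ends of introns that the leading transcripts hold whole, shown because they are the part of each gene that the protein_coding isoform lacks. They come from GENCODE M21 transcript sequences of mm10 (GRCm38), 5′ to 3′ on the gene's strand. Capitals mark the last 3 exon bases with the first 6 intron bases at a 5′ splice site, and the last 3 intron bases with the first exon base at a 3′ splice site. Zfp326 holds intron 4 of 11, 2005 bases at chr5:105886429-105888433. Psmb8 holds intron 4 of 5, 440 bases at chr17:34200271-34200710. In the alignment-based table the leading transcript carried 35.1% of the retained-intron TPM in Zfp326 and 33.3% in Psmb8. In the read-based table the 387-base Zfp326-204, which holds no whole intron, led with 18.8 TPM, against 8.91 TPM for Zfp326-205.
Zfp326 intron 4, 5′ end: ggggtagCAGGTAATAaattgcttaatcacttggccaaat
Zfp326 intron 4, 3′ end: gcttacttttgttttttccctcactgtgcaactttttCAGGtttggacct
Psmb8 intron 4, 5′ end: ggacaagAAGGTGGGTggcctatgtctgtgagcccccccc
Psmb8 intron 4, 3′ end: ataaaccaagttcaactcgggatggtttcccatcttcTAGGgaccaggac

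Sft2d1 holds intron 5 of 7, 1441 bases at chr17:8321836-8323276. Neu1 holds intron 3 of 5, 1174 bases at chr17:34932829-34934002, and Slc25a37 holds intron 3 of 4, 1756 bases at chr14:69247638-69249393. In the alignment-based table the transcripts of Neu1 and Slc25a37 shown here carried nearly all of their gene's retained-intron TPM. Sft2d1-207 carried 51.8%, and the 470-base Sft2d1-205 stood at 17.2 TPM. In the read-based table Sft2d1-205 led with 50.1 TPM, against 25.2 TPM for Sft2d1-207.
Sft2d1 intron 5, 5′ end: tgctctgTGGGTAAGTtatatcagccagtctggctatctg
Sft2d1 intron 5, 3′ end: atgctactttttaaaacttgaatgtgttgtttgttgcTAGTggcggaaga
Neu1 intron 3, 5′ end: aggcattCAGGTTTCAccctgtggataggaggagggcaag
Neu1 intron 3, 3′ end: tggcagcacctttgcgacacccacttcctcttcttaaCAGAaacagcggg
Slc25a37 intron 3, 5′ end: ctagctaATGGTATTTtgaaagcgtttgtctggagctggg
Slc25a37 intron 3, 3′ end: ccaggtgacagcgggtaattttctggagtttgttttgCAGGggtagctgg

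Ccdc59 holds intron 2 of 3, 2501 bases at chr10:105842849-105845349, and Ankzf1 holds intron 1 of 11, 1500 bases at chr1:75192678-75194177. In the alignment-based table the leading transcript carried 100% of the retained-intron TPM in Ccdc59, 33.1% in Ankzf1, 49.0% in Isca2 and 46.4% in Fam173a. Isca2 holds introns 2 and 3 of 3, and intron 3, 634 bases at chr12:84773909-84774542, begins with GC. Fam173a holds introns 1, 2 and 4 of 4, and its intron 2, 85 bases at chr17:25791487-25791571, is short enough to print whole with 10 exon bases on each side.
Ccdc59 intron 2, 5′ end: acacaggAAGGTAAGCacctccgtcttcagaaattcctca
Ccdc59 intron 2, 3′ end: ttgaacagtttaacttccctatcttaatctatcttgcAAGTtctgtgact
Ankzf1 intron 1, 5′ end: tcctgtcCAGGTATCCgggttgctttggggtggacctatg
Ankzf1 intron 1, 3′ end: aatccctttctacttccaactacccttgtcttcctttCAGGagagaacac
Isca2 intron 3, 5′ end: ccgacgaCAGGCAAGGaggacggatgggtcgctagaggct
Isca2 intron 3, 3′ end: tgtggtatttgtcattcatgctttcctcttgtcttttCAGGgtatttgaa
Fam173a intron 2: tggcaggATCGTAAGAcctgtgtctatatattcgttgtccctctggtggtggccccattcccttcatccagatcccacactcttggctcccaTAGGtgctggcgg

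These introns were read against all introns that retained_intron transcripts hold whole, 44 in the 24 genes and 3092 in the other genes. GT at the start and AG at the end was found in 42 of the 44 introns (95.5%), against 98.8% in the other genes. GC at the start with AG at the end was found in 2 (4.55%), against 0.841%, namely Isca2 intron 3 and Vps9d1 intron 6. GTATCC or ATATCC, the opening letters of many minor-class introns, stood at bases 1 to 6 of 1 intron (2.27%), Ankzf1 intron 1, against 0.485%. That match covers only bases 1 to 6, and whether Ankzf1 intron 1 is of the minor class was not tested. GTAAG or GTGAG at bases 1 to 5, which match the commonest 5′ splice site letters, was found in 17 (38.6%), against 50.8%. Only the gene's own strand was read, and GTAAGT, within GTAAG, opened 6 of the 44 (13.6%), against 11.3%. A match is a description of letters, and introns of 1 gene are not independent.

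The name of the transcript type was then checked against the transcripts themselves. A retained_intron transcript was counted as holding a whole intron when 1 of its exons spanned a protein_coding intron of at least 50 bases that no protein_coding exon of the gene overlaps. This was so for 41 of the 109 retained_intron transcripts of the 24 genes (37.6%), against 29.5% in the other genes. Among leading transcripts, the one of highest mean TPM in each gene, it was so for 11 of 24 (45.8%), against 29.3%. In the median gene, 46.0% of the retained-intron TPM lay in such transcripts, against 6.69% in the other genes. The other 13 leading transcripts are annotated as retained_intron without covering any such protein_coding intron from end to end.

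6 genes, Srsf11, Usp15, Rbm4b, Pfkp, Fam120b and Snapin, had no retained_intron transcript that holds a whole intron by this rule, which is 25% of the 24, against 49.3% of the other genes. At the other end, all retained-intron TPM of H2-Q7, Slc25a37, Psmb8, Ccdc59, Fam173a and Ankzf1 lay in transcripts that hold one. Of the 234 protein_coding introns of the 24 genes, 44 were held whole by some transcript (18.8%), against 7.004% in the other genes. These introns had a median length of 349 bases, against 273 bases in the other genes, and all protein_coding introns had a median length of 787.5 bases, against 1150 bases.

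The leading transcripts of the 24 genes were long, with a median of 2452.5 bases, against 1178 bases in the other genes. They ranged from 346 bases in Vps9d1 to 5927 bases in Slc25a37. A median of 50.8% of their bases lay outside protein_coding exons, against 54.2%; this ran from 11.5% in Thoc1 to 92.5% in Fam120b. The genes themselves were compact, with a median span of 13369 bases, against 33978 bases, and a median of 7 protein_coding introns, against 12. They had a median of 4 retained_intron and 2 protein_coding transcripts, against 3 of each in the other genes, and 7 of them (29.2%) had a single protein_coding transcript, against 15.4%. How far annotation with few protein_coding models sets the share was not tested.

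**Figure D2:**
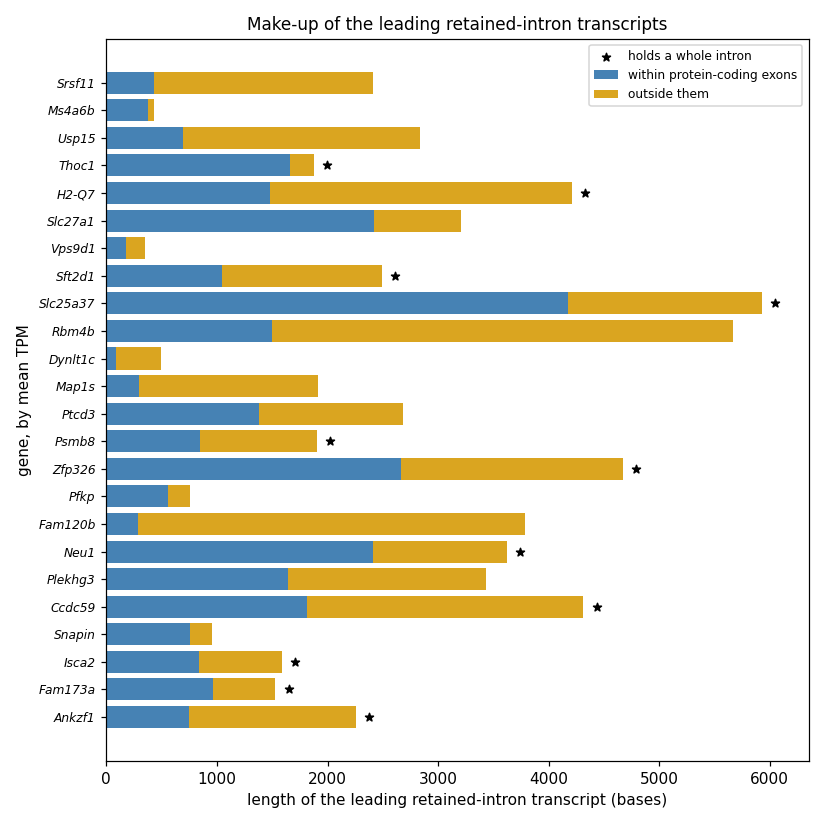
Length in bases of the leading retained-intron transcript of each gene, ordered by mean gene level, split into bases within protein-coding exons (blue) and outside them (gold), with a star where a whole intron is held. The 11 starred genes include H2-Q7, Slc25a37 and Ccdc59, while Fam120b has 92.5% of its bases outside protein-coding exons without holding a whole intron.

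A second deposited table assigns the same reads to transcripts without genome alignment, so its shares are another estimate from the same libraries and not independent evidence. In it the 24 genes had a median share of 91.8%, against 46.9% in the other genes. Individual genes ran from 62.3% in Slc25a37 to 99.0% in Dynlt1c, and 9 of the 24 were below 90% on average. Applying the same rule to the read-based table also gave 24 genes, of which 13 were the same. The read-based share was above the alignment-based one in 10 of the 24. The leading transcript was the same in both tables in 18 of the 24 (75.0%), against 74.3% in the other genes.

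**Figure D3:**
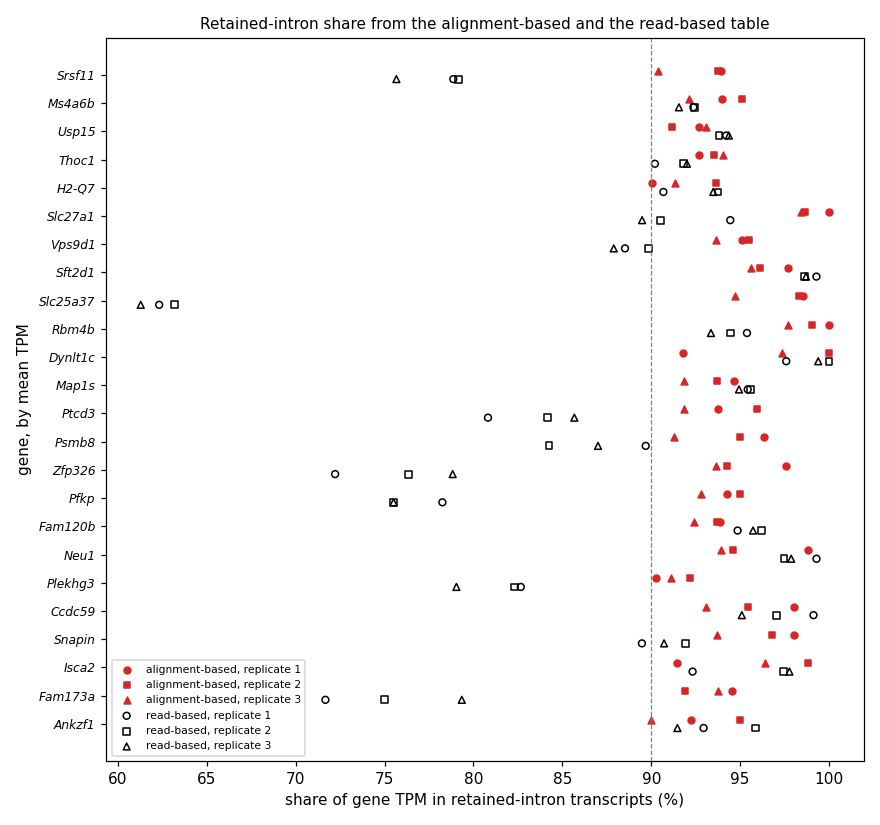
Share of gene TPM in retained-intron transcripts (%) for each of the 24 genes, from the alignment-based table (filled red) and the read-based table (open black), 1 symbol per library, with the 90% threshold dashed. The filled points lie at 90% or more by the rule, and the open points of Slc25a37, Fam173a, Zfp326, Pfkp and Srsf11 lie between 61.3% and 79.3%.

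For Srsf11 the gap between the tables (read-based shares 78.9%, 79.2% and 75.7%) came with Srsf11-210, a 397-base transcript of the nonsense-mediated decay type. It was at 2.06, 0 and 1.42 TPM in the alignment-based table and at 39.3, 22.5 and 32.2 TPM in the read-based one. Other Srsf11 transcripts differed too: the protein_coding transcript Srsf11-217, 526 bases long, averaged 0.707 TPM in the alignment-based table and 9.01 TPM in the read-based one, and Srsf11-209, 769 bases long, averaged 0.633 and 6.78 TPM in the same order of tables.

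**Figure D4:**
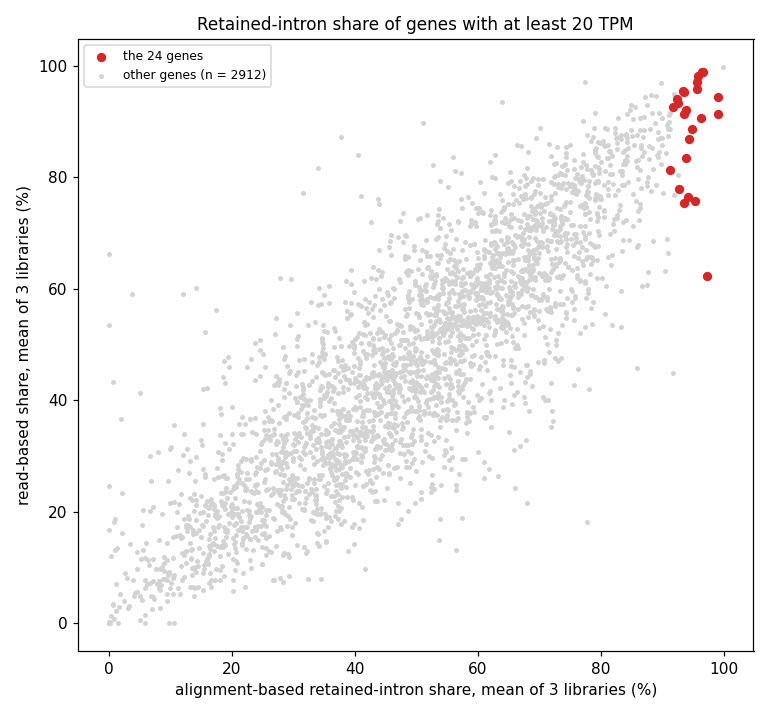
Mean alignment-based (x) against mean read-based (y) retained-intron share in %, over 3 libraries, for the 24 genes (red) and the other 2912 genes (gray). The 24 sit at the right edge by the rule and extend down to 62.3% on the read-based axis, and the other genes fill the whole range with a median near 50.01% on the x axis.

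The threshold cut through a continuous range. Ankzf1, H2-Q7 and Plekhg3 were just inside, with lowest-library shares of 90.01%, 90.03% and 90.3%. Tap2, the ribosomal protein gene Rpl5 and the mitochondrial carrier gene Slc25a40 were just outside, with 89.9%, 89.8% and 89.3%, each time in replicate 3. Without replicate 3 the rule would give 42 genes, 23 of the 24 among them.

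The share was lowest in replicate 3 for 17 of the 24 genes (70.8%), against 52.9% of the other genes, and in the read-based table for 10 of the 24 (41.7%), against 43.9%. The protein_coding TPM was highest in replicate 3 for 14 of the 24. In the other genes its median was also highest there, at 18.9 TPM, against 15.2 and 16.9 TPM in replicates 1 and 2. Of the 24, 4 genes had 0 protein_coding expected counts in replicate 1, 1 gene had 0 in replicate 2 and none had 0 in replicate 3, the deepest library. Neither count was taken over the other genes, so whether either sets the 24 apart is not known. Replicate 3 is also the library with stromal markers at 787 TPM. The part of depth and of stromal RNA in the lower shares was not tested.

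The spread of gene totals between libraries, which the rule did not use, was examined in edgeR's quasi-likelihood fit over 14839 genes, with each gene's dispersion tested against the trend. Of the 24 genes, 0 were called at a Benjamini-Hochberg adjusted p under 0.05, beside 0% of all genes tested. In simulated libraries the test found 0% of genes changed 2-fold in 1 library, so 0 calls do not show that levels were steady. It found 84% of those changed 4-fold and 100% of those changed 8-fold. The simulated libraries were given a smaller spread than the common coefficient of variation of 0.212 fitted here. These rates may therefore not hold for the real libraries. At an unadjusted p under 0.05 there were 0 of the 24 and 747 of all genes. The lowest adjusted p among the 24 was 0.992, and Vps9d1 had their lowest unadjusted p in the edgeR fit, 0.0597, followed by Plekhg3 at 0.0663 and Ms4a6b at 0.0969. The lowest adjusted p of any gene was 0.130, so the stromal markers, whose summed levels differed as given above, were not called either. Without replicate 3, 73 genes were called, and without replicate 1, 8 genes, none of them among the 24. The median SD of log2(TPM + 1) was 0.16 in the 24 genes, against 0.17 in the other genes.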

How the data were processed

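Total RNA of the chromatin fraction was sequenced in 3 libraries of 1 group. Expected counts and TPM per gene and per transcript were estimated by the authors from alignments to the transcriptome on mm10 with GENCODE M21, per the files deposited with each library; the quantification tools and whether they used strand were not given in the sources used here. A second deposited table holds read-based estimated counts and TPM. Deposited interval bounds on TPM (a signal that is never negative) were read but not printed, since the TPM of 9 to 11 of the 24 leading transcripts lay above the upper bound. Rows that name no gene held 0.240% to 1.31% of counts and stayed out of tests.

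Members and lists were chosen with earlier results of these data known. Every member is described; values in each library are given for the 12 highest by mean TPM, for the 3 lowest and highest by read-based share, for the 3 largest and smallest by SD of log2(TPM + 1), and for the 3 just inside and outside the threshold, and some others.

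Expected counts were rounded and fitted with edgeR 4.0.16 in R 4.3.3 (intercept only, filterByExpr, TMM, quasi-dispersion against the trend by an F test with Benjamini-Hochberg adjustment). This step and the share step were tested on simulated data. Shares used Python 3.11.15 with pandas 2.3.3 and numpy 2.4.6, figures matplotlib 3.10.9. Libraries were checked for duplicates: chi-square per degree of freedom was 39.1 to 72.0. Total expected counts of 11958978 to 19475027 per library left 207 or more counts for each member. Alternatives are listed in the closing section.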

Additional observations from a re-analysis of the deposited data

How the results depend on the processing

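The number of genes passing the rule depended on its settings. It was 41 with shares of expected counts in place of TPM (18 of them among the 24), 135 at a threshold of 80%, 3 at 95%, 37 at 10 TPM, 120 with no level filter and 66 when only retained_intron and protein_coding transcripts were counted. It stayed at 24 in the read-based table, with 13 shared genes. A minimum of 300 bases per transcript could not change the 24 genes, whose shortest transcript has 320 bases, and added no other gene. Leaving out 1 library gave 25 to 42 genes, 42 without replicate 3. The median read-based share of the 24 genes was 92.0% from estimated counts and 91.95% to 92.3% with 1 library left out. The mean share of 18 of the 24 genes moved by more than 1 SD between libraries in the read-based table, 14 of the 24 downward, and that of 11 with expected counts.

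No gene was more variable than the trend with DESeq2 size factors, with a mean of at least 50 counts, or with 2 settings chosen after seeing the data, the adjusted deviances of edgeR 4 and a robust prior. There were 49 with no filter on low counts and 0 to 73 with 1 library left out. None was among the 24 genes under any of these settings. TPM summed over nuclear protein_coding and long non-coding genes raised each level by a factor of 2.07 to 2.60. The factor is set by the smaller sum and was 2.60, 2.07 and 2.33 in replicates 1, 2 and 3. Comparisons of level between libraries change with it: Ccdc59 went from 23.87 ± 0.20 to 55.7 ± 6.0 TPM (SD, n = 3). Srsf11 went from 291.8 ± 11.9 to 683.1 ± 98.2 TPM, and Slc25a37 from 53.7 ± 1.9 to 125.0 ± 9.8 TPM. Not every spread grew: Rbm4b went from 44.9 ± 4.6 to 104.0 ± 1.2 TPM. The cause of the other shifts in this section was not tested. The protein_coding shares in replicate 1 rest on fewer than 50 counts in 15 of the 24 genes, which limits their precision. The rule itself chose genes with low protein_coding shares, and the part of depth in these counts was not tested.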
